A study of Mus musculus with 15 samples.

Results

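Blood clotting factors and complement proteins are made in large part by hepatocytes, and the 38 genes described here encode that output: procoagulant factors, fibrinogen, anticoagulants, fibrinolytic proteins and the complement pathways from recognition to the membrane attack complex. They were chosen by gene symbol, with no threshold on measured values, and are 38 of 24411 genes in the deposited count files. The choice was made with earlier results of these data known, so it was not independent of them. All 38 had reads in every library, with a lowest count of 645, and all 38 were among the 14098 genes tested. Polyadenylated RNA was sequenced from fresh frozen liver tissue of FVB/NJ males, in 5 groups of 3 libraries. The groups were livers with S45Y-CTNNB1, G31A-NFE2L2 and hMET together (CTNNB1/NFE2L2/MET), S45Y-CTNNB1 with G31A-NFE2L2 (CTNNB1/NFE2L2), G31A-NFE2L2 with hMET (NFE2L2/MET), S45Y-CTNNB1 with hMET (CTNNB1/MET), and wild-type liver (WT). All 4 models carry at least 2 of the 3 alleles, so no allele is seen alone against WT, and the labels give no age, harvest time, vector or delivery route, nor whether tumour or whole liver was taken. The question addressed was how the level of these secreted-protein transcripts differed between each allele combination and WT, and between combinations. The combinations differ by 1 allele or by a swap of 1 allele for another.

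CTNNB1 encodes β-catenin, the transcriptional effector of Wnt signalling, NFE2L2 encodes NRF2, which drives antioxidant response genes, and MET encodes the receptor for hepatocyte growth factor. The clotting factors that hepatocytes secrete circulate in plasma as zymogens that activate one another in a cascade ending in thrombin and fibrin, while complement converges from its classical, lectin and alternative arms on C3 and then on the terminal proteins C5 to C9. Many of these genes are driven by the hepatocyte transcription factors HNF1, HNF4 and C/EBP, and fibrinogen and C3 are also acute phase genes that rise under interleukin 6.

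Gene counts per library ran between 14084343 and 20702618, and levels are given as CPM, counts scaled to a common library size. The 38 genes together took 3.65 to 4.30% of gene counts in CTNNB1/NFE2L2/MET livers, 3.28 to 3.65% in CTNNB1/NFE2L2 livers, 5.29 to 7.74% in NFE2L2/MET livers, 4.66 to 4.86% in CTNNB1/MET livers and 4.86 to 7.29% in WT livers. The defining hepatocyte markers Alb, Apoa1, Apob, Ttr and Hnf4a were present in every library, with summed levels of 64996 to 70635 CPM in CTNNB1/NFE2L2/MET, 27650 to 35151 CPM in CTNNB1/NFE2L2, 128011 to 170132 CPM in NFE2L2/MET, 122354 to 130187 CPM in CTNNB1/MET and 66960 to 91810 CPM in WT livers. Alb made up the larger part of each sum, so the sums depend mainly on that gene. Of 6 listed marker symbols 5 were in the files. The symbol Tf was not, and transferrin under another symbol was not looked for. Against WT, 3 of the 5 fell in CTNNB1/NFE2L2/MET and 4 in CTNNB1/NFE2L2 livers, and 0 rose (23.4% and 24.2% of all tested genes fell). In NFE2L2/MET and CTNNB1/MET livers 2 rose and 0 fell (13.5% and 11% of all tested genes rose). In bulk liver, fewer hepatocytes and less RNA of the 38 genes per hepatocyte cannot be told apart. Nqo1, a textbook NRF2 target, measured 295, 261 and 249 CPM in CTNNB1/NFE2L2/MET livers, 243, 249 and 251 CPM in CTNNB1/NFE2L2 livers, 108, 73.8 and 119.7 CPM in NFE2L2/MET livers, 9.13, 10.9 and 7.36 CPM in CTNNB1/MET livers and 5.90, 4.92 and 5.32 CPM in WT livers, so the libraries labelled with G31A-NFE2L2 stood apart from those without it. Unmapped reads made up 10.3% ± 1.41 of reads in CTNNB1/NFE2L2/MET, 10.7% ± 1.03 in CTNNB1/NFE2L2, 13.7% ± 0.881 in NFE2L2/MET, 17.2% ± 1.75 in CTNNB1/MET and 22.9% ± 3.05 in WT livers (SD, n = 3 each), and 3 proliferation genes (Mki67, Top2a and Cdk1) summed to 120.8 to 165 CPM in CTNNB1/NFE2L2/MET, 91.7 to 115 CPM in CTNNB1/NFE2L2, 12.5 to 20.9 CPM in NFE2L2/MET, 36.6 to 52.2 CPM in CTNNB1/MET and 8.15 to 10.1 CPM in WT livers. The part of either in the results was not tested.

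A pair of libraries stood apart in acute phase genes. Saa1, serum amyloid A, measured 936, 5915 and 872 CPM in NFE2L2/MET livers and 46.8, 8052 and 99.3 CPM in WT livers. Hp, haptoglobin, measured 8271, 17275 and 9304 CPM in NFE2L2/MET livers and 1765, 17479 and 3446 CPM in WT livers. NFE2L2/MET replicate 2 and WT replicate 2 were the high ones each time, and results on fibrinogen and C3 are therefore given with and without them.

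The proximal promoters of genes on which the results turn are shown first, because members with unlike behaviour (Cpb2 against C9, C8a, C8b and Fgb) can be compared letter by letter. Each is the 250 bases before the RefSeq start in GRCm38.p6, read in the direction of the gene, with capitals marking any match to 4 motifs searched on both strands. These were the antioxidant response element (TGACNNNGC or GCNNNGTCA), an HNF1 half-site (GTTAAT or ATTAAC), a C/EBP site (TTGCNNAA or TTNNGCAA) and an interleukin 6 response element (CTGGGAA or TTCCCAG). Cpb2 lies on the plus strand at chr14:75242037-75242286 and had no match. C9 is on the plus strand at chr15:6445096-6445345, with a C/EBP match. C8a (minus strand, chr4:104876399-104876648) and C8b (plus strand, chr4:104766067-104766316) each had an HNF1 half-site. Fgb, on the minus strand at chr3:83049864-83050113, had an interleukin 6 element, a C/EBP site and an HNF1 half-site, in that order along the sequence and without overlap.
Cpb2: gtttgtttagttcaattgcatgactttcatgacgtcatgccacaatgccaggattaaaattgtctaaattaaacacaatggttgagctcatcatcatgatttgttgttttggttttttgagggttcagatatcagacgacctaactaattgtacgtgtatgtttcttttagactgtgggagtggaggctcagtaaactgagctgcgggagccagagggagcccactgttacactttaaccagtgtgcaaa
C9: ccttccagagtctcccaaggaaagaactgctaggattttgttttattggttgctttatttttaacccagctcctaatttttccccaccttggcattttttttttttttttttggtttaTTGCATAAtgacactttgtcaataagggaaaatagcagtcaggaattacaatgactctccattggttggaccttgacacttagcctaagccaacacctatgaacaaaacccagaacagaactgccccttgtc
C8a: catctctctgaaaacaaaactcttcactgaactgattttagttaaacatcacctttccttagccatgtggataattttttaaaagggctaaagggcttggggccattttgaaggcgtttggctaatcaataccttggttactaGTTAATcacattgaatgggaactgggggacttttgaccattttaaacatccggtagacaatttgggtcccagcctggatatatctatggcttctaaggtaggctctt
C8b: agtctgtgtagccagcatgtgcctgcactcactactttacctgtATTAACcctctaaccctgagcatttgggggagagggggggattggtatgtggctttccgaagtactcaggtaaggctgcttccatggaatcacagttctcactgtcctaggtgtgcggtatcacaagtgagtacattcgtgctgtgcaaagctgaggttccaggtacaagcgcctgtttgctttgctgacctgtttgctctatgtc
Fgb: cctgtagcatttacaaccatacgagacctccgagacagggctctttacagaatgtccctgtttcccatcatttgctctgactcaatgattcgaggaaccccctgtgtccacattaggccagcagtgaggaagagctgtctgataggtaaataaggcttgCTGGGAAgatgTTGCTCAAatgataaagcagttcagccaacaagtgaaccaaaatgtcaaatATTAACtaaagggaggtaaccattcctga

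Of the 38 genes, 30 had a promoter in the table; C2, C4b, Cfb, Cfi, Kng1, Masp1, Plg and Proc had none. The HNF1 half-site lay in 9 of these 30 (C1ra, C4bp, C8a, C8b, F13b, Fga, Fgb, Hc and Vtn), against 6.43% of 32851 promoters of the same length. The C/EBP site lay in 7 (C3, C9, F11, F9, Fga, Fgb and Klkb1), against 9.56% of all promoters. An interleukin 6 element was found in 5 (C1ra, F9, Fgb, Fgg and Masp2), against 9.10%, and the antioxidant response element in 2 (Klkb1 and Serpind1), against 10.2%. The members are counted as genes and the background as promoter entries, with no filter on expression in liver. The 2 are therefore unlike units, and whether members differ from other liver-expressed genes was not tested. Several members are also neighbours on GRCm38: Fgg, Fga and Fgb lie within chr3:83007724-83049863, F7 and F10 within chr8:13026034-13056676, F11 and Klkb1 within chr8:45241174-45294859, and C8b and C8a within chr4:104766317-104876398.

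In livers with S45Y-CTNNB1 and G31A-NFE2L2 together, most of the 38 transcripts were lower than in WT. Among them 27 fell and 3 rose in CTNNB1/NFE2L2/MET livers at an adjusted p under 0.05 (edgeR quasi-likelihood test, adjusted over all 14098 genes), where 23.4% of all tested genes fell and 26.5% rose. The labels do not say whether the 3 libraries of a group came from separate mice, so the spread behind each p-value is that of these samples and may be technical. The members' median log2 fold change was −0.82, against −0.02 over all tested genes. In CTNNB1/NFE2L2 livers 32 fell and 3 rose, where 24.2% of all genes fell and 24.5% rose, with a median of −0.98 against −0.01 over all genes. Losses of more than 2-fold were counted for 15 members in CTNNB1/NFE2L2/MET livers (8.15% of all genes) and 19 in CTNNB1/NFE2L2 livers (7.99%). The 3 that rose in each of these groups were Pros1, Cpb2 and Mbl2. In NFE2L2/MET livers 6 rose and 2 fell, where 13.5% of all genes rose and 9.89% fell, and the median was 0.15 against 0.00. That median was 0.04 without WT replicate 1 and 0.00 without NFE2L2/MET replicate 2. In CTNNB1/MET livers 4 rose and 3 fell, where 11% rose and 6.22% fell, with a median of −0.07 against 0.00, which was −0.13 without WT replicate 1 and 0.01 without WT replicate 2. The 4 comparisons share the WT libraries and are given side by side for that reason.

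**Figure D1:**
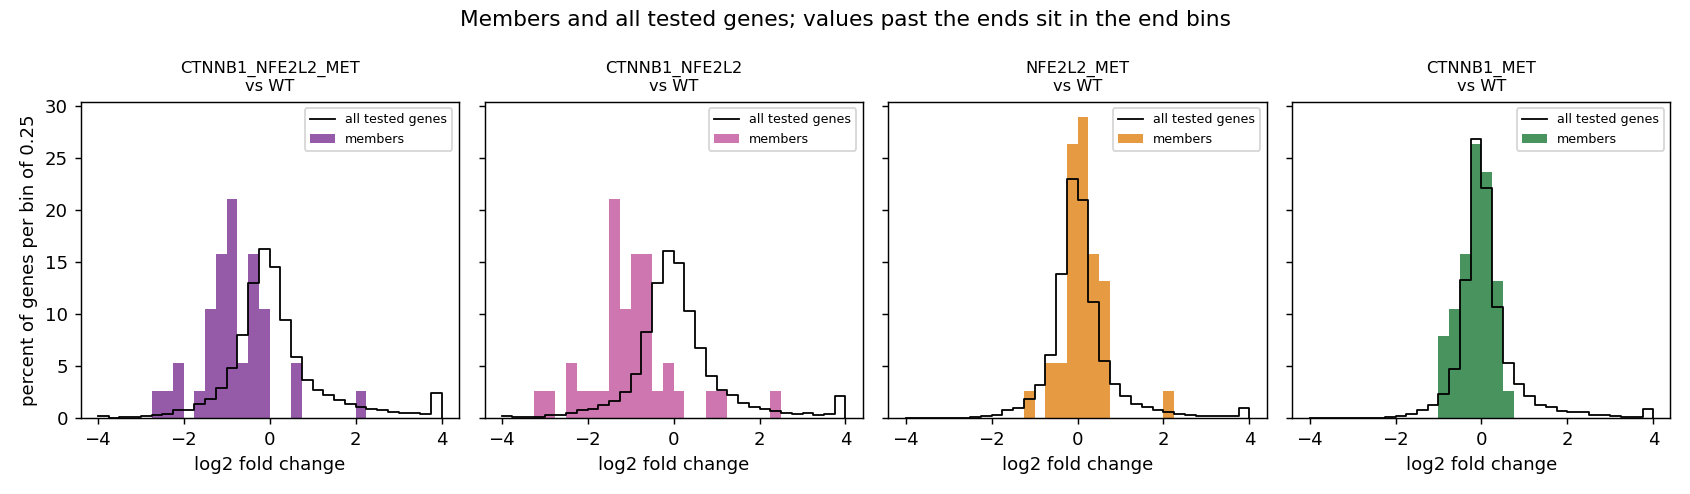
Share of genes (vertical axis, percent per bin of 0.25) by log2 fold change against WT (horizontal axis) for the 38 members (bars) and all tested genes (line), with values past the ends pooled in the end bins. In CTNNB1/NFE2L2/MET and CTNNB1/NFE2L2 livers the bars lie left of the line, at medians of −0.82 and −0.98, and in NFE2L2/MET and CTNNB1/MET livers they lie around 0.

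**Figure D2:**
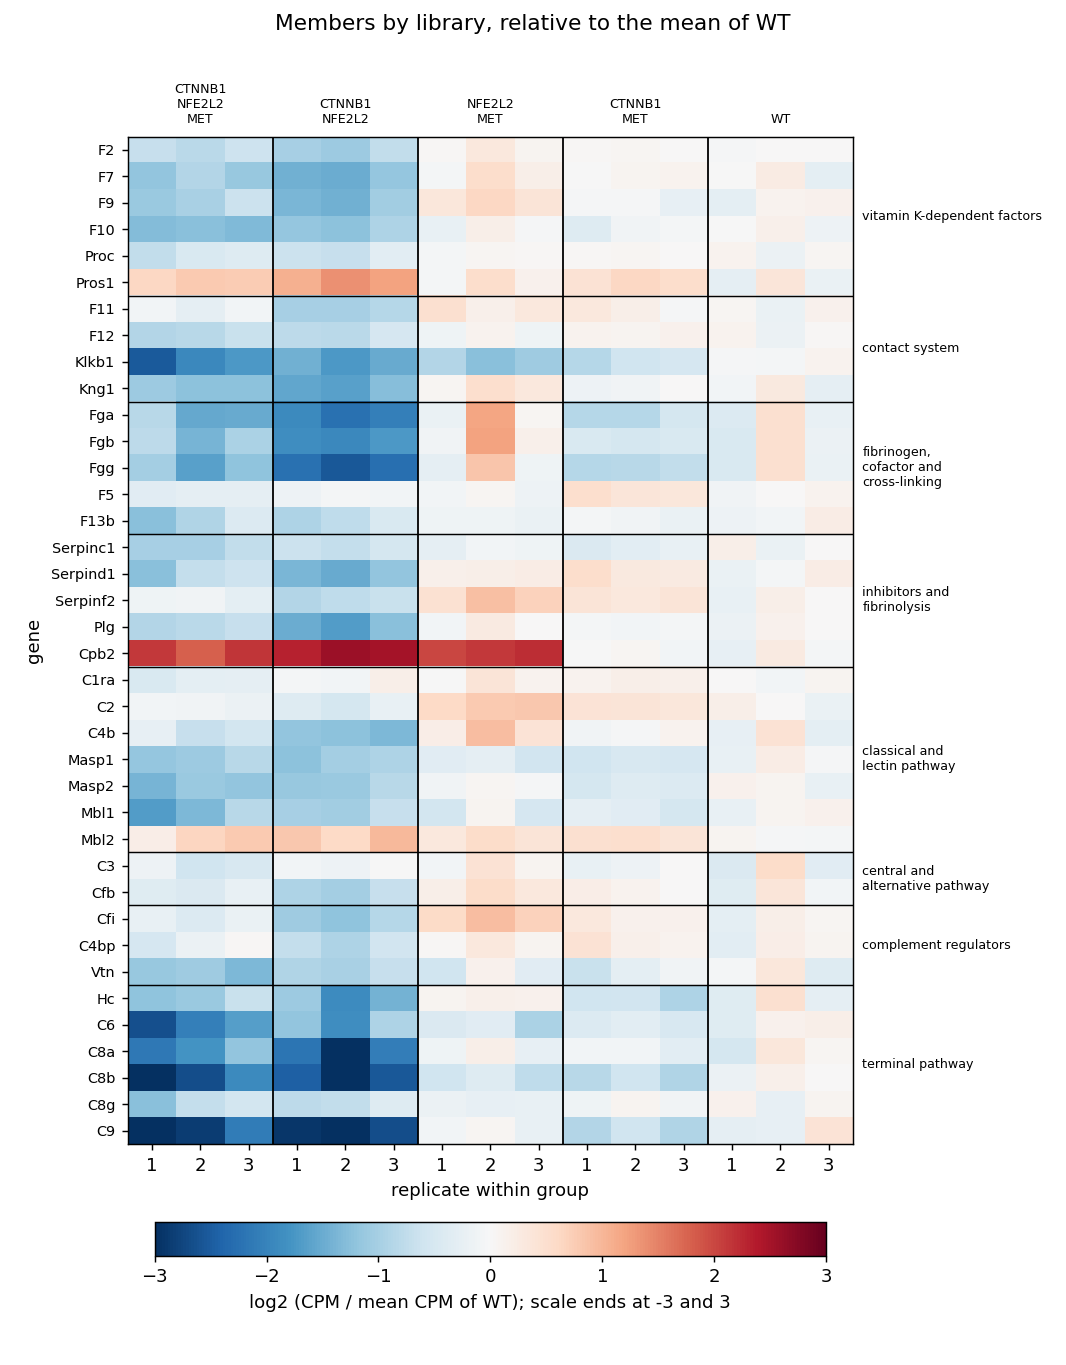
Level of each member (rows, grouped by role) in each of the 15 libraries (columns, 3 a group), as log2 of CPM over the mean CPM of WT, with the colour scale ending at −3 and 3. The first 2 groups are mostly below the WT mean except for Cpb2, Pros1 and Mbl2, and Cpb2 is also above it in NFE2L2/MET livers.

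The terminal complement genes, whose proteins assemble the membrane attack complex, had the lowest median of the 8 roles: −1.86 in CTNNB1/NFE2L2/MET and −1.94 in CTNNB1/NFE2L2 livers, and all 6 fell in both. Of all tested genes, 23.4% and 24.2% fell in these groups. FVB/NJ mice lack functional C5, encoded by Hc, as background, but Hc transcripts were counted here. C9, which polymerises into the pore, measured 104, 191 and 324 CPM in CTNNB1/NFE2L2/MET livers, 183, 57.5 and 217 CPM in CTNNB1/NFE2L2 livers, 1310.4, 1426 and 1183 CPM in NFE2L2/MET livers, 743, 908 and 730.4 CPM in CTNNB1/MET livers and 1150.0, 1165 and 1814 CPM in WT livers. Each library of the first 2 groups was below each library of the other 3. CTNNB1/MET livers in turn lay below WT in every library. Against WT, C9 was 6.67-fold lower in CTNNB1/NFE2L2/MET livers (log2 fold change −2.74 ± 0.47 SE, adjusted p = 0.000354) and 9.02-fold lower in CTNNB1/NFE2L2 livers (−3.17 ± 0.48, adjusted p = 0.00015). In CTNNB1/MET livers its log2 fold change was −0.79 ± 0.44 (adjusted p = 0.244), and in NFE2L2/MET livers −0.07 (adjusted p = 0.923).

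C8a, C8b and C8g encode the 3 chains of C8, and C8a and C8b are neighbouring genes. C8b measured 82.5, 104 and 174 CPM in CTNNB1/NFE2L2/MET livers, 119, 35.0 and 112 CPM in CTNNB1/NFE2L2 livers, 428, 499 and 387 CPM in NFE2L2/MET livers, 364, 432 and 347 CPM in CTNNB1/MET livers and 578, 726 and 654 CPM in WT livers. C8a measured 256, 329 and 498 CPM in CTNNB1/NFE2L2/MET livers, 249, 109 and 272 CPM in CTNNB1/NFE2L2 livers, 1048, 1294 and 965 CPM in NFE2L2/MET livers, 1071, 1079 and 921 CPM in CTNNB1/MET livers and 789, 1443 and 1186 CPM in WT livers. For both genes the first 2 groups did not overlap the other 3, and CTNNB1/NFE2L2 replicate 2 was the lowest of the 15 libraries, as it was for C9. NFE2L2/MET and CTNNB1/MET livers also lay below WT in every library for C8b, at means of 438 and 381 CPM against 653 CPM. EdgeR called neither of these differences from WT. C8b fell by 2.44 ± 0.38 on the log2 scale in CTNNB1/NFE2L2/MET livers (adjusted p = 0.000181) and by 2.88 ± 0.39 in CTNNB1/NFE2L2 livers (adjusted p = 6.27e-05), and C8a fell 3.16-fold and 5.43-fold in the same groups (adjusted p = 0.000812 and 5.03e-05). C8g, the lipocalin-like chain, fell less, with log2 fold changes of −0.81 ± 0.16 and −0.62 ± 0.16.

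C6, which binds C5b first in the assembly, measured 84.6, 126 and 166 CPM in CTNNB1/NFE2L2/MET livers, 231, 144 and 277 CPM in CTNNB1/NFE2L2 livers and 407, 577 and 596 CPM in WT livers. Neither model overlapped WT, and the fall was 4.19-fold in CTNNB1/NFE2L2/MET livers (adjusted p = 2.68e-05) and 2.42-fold in CTNNB1/NFE2L2 livers (adjusted p = 0.00124). Hc fell by 0.98 ± 0.23 and 1.43 ± 0.23 on the log2 scale in the same 2 groups. In NFE2L2/MET livers 0 of the 6 terminal genes were called by edgeR, 0 had an unadjusted p under 0.05 and DESeq2 called 0. In CTNNB1/MET livers 0 were called by edgeR, while 1 had an unadjusted p under 0.05 and DESeq2 called 1, each lower. Of all tested genes, edgeR called 9.89% lower and 13.5% higher in NFE2L2/MET livers, and 6.22% lower and 11% higher in CTNNB1/MET livers.

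**Figure D3:**
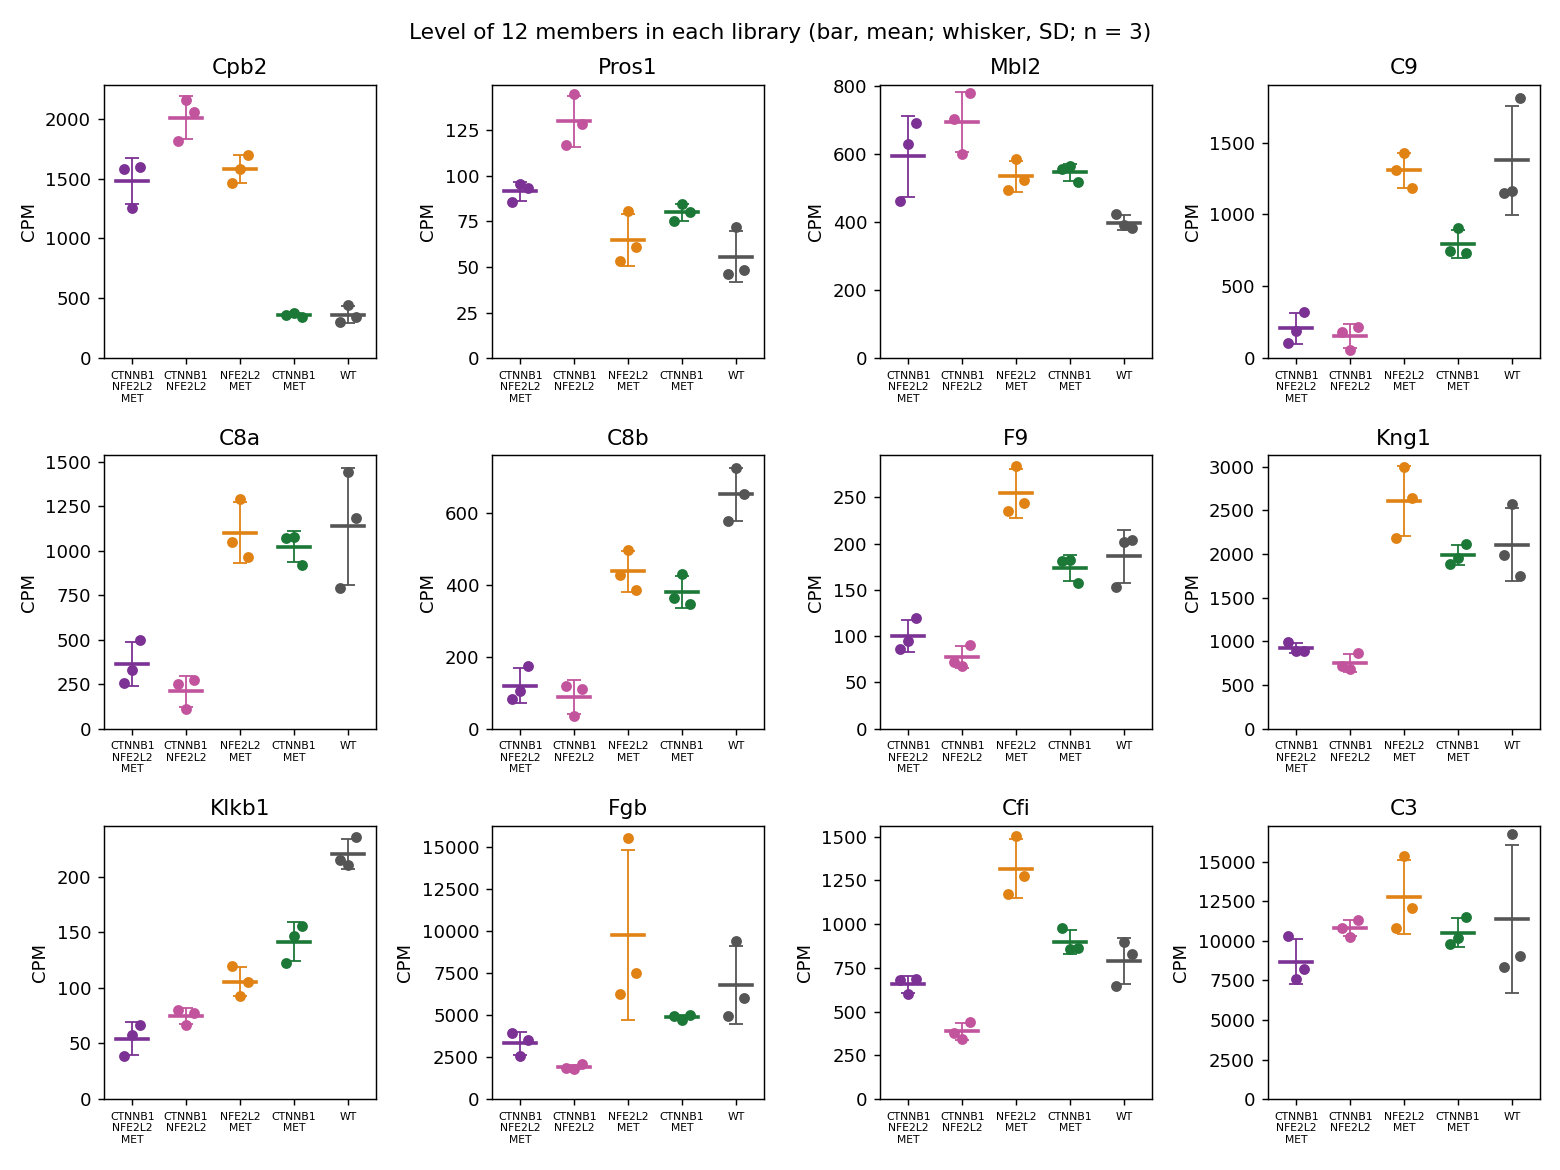
Level in CPM (vertical axes, from 0) of 12 members in each library (points) by group (horizontal axes), with the group mean (bar) and SD (whisker). C9, C8a and C8b are low in both groups with S45Y-CTNNB1 and G31A-NFE2L2, Cpb2 is high in the 3 groups with G31A-NFE2L2, and WT replicate 2 and NFE2L2/MET replicate 2 stand above their groups for Fgb.

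Fibrinogen, the precursor of the fibrin clot, is a complex of 3 chains made from the adjacent genes Fga, Fgb and Fgg, and all 3 fell in both groups. The shares of all tested genes that fell were 23.4% in CTNNB1/NFE2L2/MET and 24.2% in CTNNB1/NFE2L2 livers. Per kilobase of transcript Fgg was the most abundant of the 38 in WT livers, at 3096 CPM per kb. Fgg measured 2665, 1742 and 2342 CPM in CTNNB1/NFE2L2/MET livers, 1145, 921 and 1119.9 CPM in CTNNB1/NFE2L2 livers, 4448, 9555 and 4926 CPM in NFE2L2/MET livers, 2990.1, 3018 and 3236 CPM in CTNNB1/MET livers and 3923, 7561 and 4686 CPM in WT livers. The CTNNB1/NFE2L2 livers were below every other library and the CTNNB1/NFE2L2/MET livers below every library of the other 3 groups. Fgg fell by 1.26 ± 0.29 on the log2 scale in CTNNB1/NFE2L2/MET livers (adjusted p = 0.00188) and 5.08-fold in CTNNB1/NFE2L2 livers (−2.34 ± 0.30, adjusted p = 1.43e-05). Fga fell by 1.26 ± 0.33 and 2.06 ± 0.34, and Fgb by 1.03 ± 0.30 and 1.83 ± 0.31, in CTNNB1/NFE2L2/MET and CTNNB1/NFE2L2 livers in that order.

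Without WT replicate 2 and NFE2L2/MET replicate 2, the libraries high in acute phase genes, the fibrinogen genes were still called in both groups, with log2 fold changes of −0.96 (Fga), −0.74 (Fgb) and −0.95 (Fgg) in CTNNB1/NFE2L2/MET livers and −1.73, −1.51 and −2.01 in CTNNB1/NFE2L2 livers. With WT replicate 2 alone left out, Fgb in CTNNB1/NFE2L2/MET livers was at −0.71 with an adjusted p of 0.0622, and its call also ended without CTNNB1/NFE2L2/MET replicate 2. None of the 3 genes was called in NFE2L2/MET livers by edgeR or DESeq2, and none had an unadjusted p under 0.05 (log2 fold change of Fga 0.48). In CTNNB1/MET livers edgeR called none of the 3, at log2 fold changes of −0.74 (Fga), −0.47 (Fgb) and −0.81 (Fgg), while Fga and Fgg had unadjusted p of 0.0399 and 0.0122. Fgg there was called lower by DESeq2 (−0.81, adjusted p = 0.0189) and with scaling by total counts (edgeR, −0.84, adjusted p = 0.0414). Without NFE2L2/MET replicate 2, Fga and Fgg in CTNNB1/MET livers were at −0.74 and −0.81 with edgeR adjusted p of 0.0447 and 0.0205. The other members of this role are F5, the cofactor of factor Xa, and F13b, the carrier subunit of the fibrin cross-linking factor. F13b fell in both groups, by 0.81 ± 0.17 in CTNNB1/NFE2L2/MET and 0.70 ± 0.17 in CTNNB1/NFE2L2 livers. F5 fell by 0.29 ± 0.10 in CTNNB1/NFE2L2/MET livers (adjusted p = 0.028), a call that ended without any 1 of CTNNB1/NFE2L2/MET replicates 1 to 3 or WT replicates 2 and 3 (adjusted p up to 0.0982), and was at −0.10 in CTNNB1/NFE2L2 livers (adjusted p = 0.454).

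Of the vitamin K-dependent factors, which need γ-carboxylation to bind membranes, 5 of 6 fell and 1, Pros1, rose in both groups. Over all tested genes 23.4% fell and 26.5% rose in CTNNB1/NFE2L2/MET livers, and 24.2% fell and 24.5% rose in CTNNB1/NFE2L2 livers. F7, which starts the cascade with tissue factor, measured 69.4, 86.8 and 71.9 CPM in CTNNB1/NFE2L2/MET livers, 58.4, 56.6 and 71.5 CPM in CTNNB1/NFE2L2 livers and 158, 189 and 129.6 CPM in WT livers. Its neighbour F10, which converts prothrombin to thrombin, measured 259.6, 264 and 254 CPM in CTNNB1/NFE2L2/MET livers, 286, 271 and 332 CPM in CTNNB1/NFE2L2 livers and 629, 705 and 569 CPM in WT livers. Both genes were lower in every library of these models than in every WT library, with log2 fold changes of −1.06 ± 0.16 and −1.35 ± 0.16 for F7 and −1.29 ± 0.14 and −1.10 ± 0.13 for F10 in CTNNB1/NFE2L2/MET and CTNNB1/NFE2L2 livers. F9, the factor missing in haemophilia B, fell by 0.90 ± 0.15 in CTNNB1/NFE2L2/MET livers (adjusted p = 0.000166) and 1.27 ± 0.15 in CTNNB1/NFE2L2 livers (adjusted p = 7.49e-06). F2, prothrombin, fell by 0.71 ± 0.13 and 0.93 ± 0.13, and Proc, the precursor of activated protein C, by 0.52 ± 0.13 and 0.54 ± 0.13. Pros1 encodes protein S, the cofactor of activated protein C, and is also made outside hepatocytes. It measured 85.7, 95.3 and 93.5 CPM in CTNNB1/NFE2L2/MET livers, 116.6, 145 and 128 CPM in CTNNB1/NFE2L2 livers, 53.3, 80.6 and 60.7 CPM in NFE2L2/MET livers, 75.2, 84.8 and 79.9 CPM in CTNNB1/MET livers and 46.4, 71.6 and 48.5 CPM in WT livers. The CTNNB1/NFE2L2/MET, CTNNB1/NFE2L2 and CTNNB1/MET livers lay above WT in every library, while NFE2L2/MET overlapped it. Pros1 rose by 0.72 ± 0.16 in CTNNB1/NFE2L2/MET livers (adjusted p = 0.00196) and by 1.22 ± 0.17 in CTNNB1/NFE2L2 livers (adjusted p = 2.66e-05).

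The contact system starts clotting on charged surfaces and releases bradykinin. Klkb1, plasma prekallikrein, measured 38.4, 57.6 and 67.0 CPM in CTNNB1/NFE2L2/MET livers, 80.5, 66.7 and 77.8 CPM in CTNNB1/NFE2L2 livers, 119, 92.8 and 105.1 CPM in NFE2L2/MET livers, 122.3, 147 and 156 CPM in CTNNB1/MET livers and 215, 210.4 and 236 CPM in WT livers. WT was above all 12 model libraries, and Klkb1 fell in each model: 4.05-fold in CTNNB1/NFE2L2/MET livers (adjusted p = 2.18e-07), 2.94-fold in CTNNB1/NFE2L2 livers (adjusted p = 2.67e-06), 2.08-fold in NFE2L2/MET livers (adjusted p = 0.000344) and 1.56-fold in CTNNB1/MET livers (adjusted p = 0.0146). The last of these calls ended without CTNNB1/MET replicate 1 (adjusted p = 0.0797). Its neighbour F11 did not follow in CTNNB1/NFE2L2/MET livers: it measured 129.5, 114 and 132 CPM there, 69.3, 69.0 and 76.5 CPM in CTNNB1/NFE2L2 livers and 143, 119 and 152 CPM in WT livers. F11 fell by 0.95 ± 0.12 in CTNNB1/NFE2L2 livers (adjusted p = 1.6e-05) and was at −0.15 in CTNNB1/NFE2L2/MET livers (adjusted p = 0.339). Kng1, kininogen, fell by 1.19 ± 0.16 and 1.48 ± 0.16, and F12, the contact-activated factor XII, by 0.79 ± 0.12 and 0.69 ± 0.12, in CTNNB1/NFE2L2/MET and CTNNB1/NFE2L2 livers. Reads that match both Kng1 and its near-identical copy Kng2 would be left out as multimapping.

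Cpb2, which encodes thrombin-activatable fibrinolysis inhibitor, the carboxypeptidase that slows clot lysis, had the largest rise of the 38 in all 3 groups with G31A-NFE2L2. It measured 1579, 1257 and 1601 CPM in CTNNB1/NFE2L2/MET livers, 1811, 2159.8 and 2056 CPM in CTNNB1/NFE2L2 livers, 1464, 1577 and 1701 CPM in NFE2L2/MET livers, 359, 379 and 345 CPM in CTNNB1/MET livers and 305, 440.4 and 347 CPM in WT livers. The 9 libraries with G31A-NFE2L2 did not overlap the 6 without it, and CTNNB1/MET livers lay within the WT range. Against WT, Cpb2 rose 4.06-fold in CTNNB1/NFE2L2/MET livers (log2 2.02 ± 0.15, adjusted p = 7.63e-08), 5.52-fold in CTNNB1/NFE2L2 livers (2.46 ± 0.16, adjusted p = 1.12e-08) and 4.34-fold in NFE2L2/MET livers (2.12 ± 0.15, adjusted p = 1.61e-07), and was at −0.01 ± 0.15 in CTNNB1/MET livers (adjusted p = 0.969). Against CTNNB1/MET livers it rose 5.56-fold in CTNNB1/NFE2L2 livers and 4.38-fold in NFE2L2/MET livers. Its level per kilobase was 1001 CPM in CTNNB1/NFE2L2/MET, 1360 CPM in CTNNB1/NFE2L2, 1070 CPM in NFE2L2/MET, 244.4 CPM in CTNNB1/MET and 246.4 CPM in WT livers, where it ranked 23 of the 38.

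The other genes of this role encode antithrombin (Serpinc1), heparin cofactor II (Serpind1), α2-antiplasmin (Serpinf2) and plasminogen (Plg). All 4 fell in CTNNB1/NFE2L2 livers, where 24.2% of all tested genes fell. Plg, the zymogen of plasmin, measured 1788, 1881 and 2039 CPM in CTNNB1/NFE2L2/MET livers, 1181, 1027 and 1384 CPM in CTNNB1/NFE2L2 livers and 2946, 3633 and 3332 CPM in WT livers. The 3 groups did not overlap, and Plg fell by 0.80 ± 0.15 in CTNNB1/NFE2L2/MET livers (adjusted p = 0.000347) and 2.76-fold in CTNNB1/NFE2L2 livers (adjusted p = 1.41e-06). Serpinc1 fell by 0.91 ± 0.14 and 0.62 ± 0.14, and Serpind1 by 0.84 ± 0.16 and 1.35 ± 0.16, in CTNNB1/NFE2L2/MET and CTNNB1/NFE2L2 livers. Serpinf2, which neutralises plasmin, fell by 0.76 ± 0.14 in CTNNB1/NFE2L2 livers (adjusted p = 0.00037), was at −0.18 in CTNNB1/NFE2L2/MET livers (adjusted p = 0.3) and rose by 0.69 ± 0.14 in NFE2L2/MET livers (adjusted p = 0.00241).

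In the classical and lectin pathways, 4 of 7 genes fell and 1 rose in CTNNB1/NFE2L2/MET livers, and 5 fell and 1 rose in CTNNB1/NFE2L2 livers. In CTNNB1/NFE2L2/MET livers these were 57.1% and 14.3% of the role, where 23.4% of all tested genes fell and 26.5% rose. In CTNNB1/NFE2L2 livers they were 71.4% and 14.3%, against 24.2% and 24.5% of all tested genes. Masp2, the lectin pathway protease that cleaves C4 and C2, measured 68.5, 83.7 and 79.3 CPM in CTNNB1/NFE2L2/MET livers, 82.5, 84.1 and 102 CPM in CTNNB1/NFE2L2 livers and 197, 192 and 155 CPM in WT livers. Neither model overlapped WT, and Masp2 fell by 1.23 ± 0.12 (adjusted p = 7.47e-07) and 1.02 ± 0.12 (adjusted p = 5.2e-06). Counts of Masp2 omit reads shared with the overlapping gene Tardbp, since the unstranded count was 62.1% of the sum of both strand columns. Masp1, a related protease, fell by 1.02 ± 0.13 and 1.05 ± 0.13, and Mbl1, a mannose-binding lectin, by 1.25 ± 0.21 and 0.90 ± 0.21. Mbl2, the other mannose-binding lectin, went the other way: it measured 461, 628 and 689.7 CPM in CTNNB1/NFE2L2/MET livers, 702, 601 and 778 CPM in CTNNB1/NFE2L2 livers, 495, 584 and 522 CPM in NFE2L2/MET livers, 554, 565 and 519 CPM in CTNNB1/MET livers and 424, 390.1 and 381 CPM in WT livers. All 12 model libraries lay above WT, and Mbl2 rose by 0.57 ± 0.14 in CTNNB1/NFE2L2/MET livers (adjusted p = 0.00393) and 0.80 ± 0.15 in CTNNB1/NFE2L2 livers (adjusted p = 0.00035).

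C4b, the central protein of both pathways, has a near-identical copy, C4a, and reads matching both would be left out as multimapping. C4b fell by 1.25 ± 0.22 in CTNNB1/NFE2L2 livers (adjusted p = 0.000217) and was at −0.48 ± 0.21 in CTNNB1/NFE2L2/MET livers (adjusted p = 0.07). Without NFE2L2/MET replicate 2 alone, edgeR called C4b in CTNNB1/NFE2L2/MET livers (−0.48, adjusted p = 0.0423). Without that library and WT replicate 2, C4b was at −0.22 there (edgeR adjusted p = 0.217) and at −0.97 in CTNNB1/NFE2L2 livers (adjusted p = 9.1e-05). C2, its partner in the C3 convertase, fell by 0.37 ± 0.11 in CTNNB1/NFE2L2 livers (adjusted p = 0.00897, and 0.0536 without CTNNB1/NFE2L2 replicate 2). C1ra, a protease of C1 with the copy C1rb, fell by 0.33 ± 0.12 in CTNNB1/NFE2L2/MET livers (adjusted p = 0.0273). That call ended without CTNNB1/NFE2L2/MET replicate 1, WT replicate 1 or WT replicate 3 (adjusted p up to 0.105).

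C3, on which every arm converges, was called by edgeR in 0 of the 10 comparisons and had an unadjusted p under 0.05 in 1 of them, CTNNB1/NFE2L2/MET against NFE2L2/MET livers. It measured 10284, 7578 and 8193 CPM in CTNNB1/NFE2L2/MET livers, 10816, 10269.5 and 11285 CPM in CTNNB1/NFE2L2 livers, 10838, 15362 and 12101 CPM in NFE2L2/MET livers, 9823, 10186 and 11532 CPM in CTNNB1/MET livers and 8369, 16754 and 9039 CPM in WT livers. Every model overlapped WT, while each CTNNB1/NFE2L2/MET library lay below each NFE2L2/MET library. Against WT, the log2 fold change of C3 was −0.39 ± 0.23 in CTNNB1/NFE2L2/MET livers (adjusted p = 0.181) and −0.08 in CTNNB1/NFE2L2 livers (adjusted p = 0.812). Without WT replicate 2 and NFE2L2/MET replicate 2 these became −0.02 (adjusted p = 0.922) and 0.32 (adjusted p = 0.112). In CTNNB1/NFE2L2/MET against NFE2L2/MET livers C3 was at −0.56 with an adjusted p of 0.0864 by edgeR, and DESeq2 called it there (−0.56, adjusted p = 0.0384), its 1 call of C3 among the 10. Without WT replicate 2 alone, edgeR called C3 in that comparison (−0.55, adjusted p = 0.0176) and in NFE2L2/MET against WT livers (0.55, adjusted p = 0.0447). That fit keeps the high NFE2L2/MET replicate 2. Without NFE2L2/MET replicate 2 alone, edgeR called C3 in neither, at −0.40 (adjusted p = 0.277) and 0.01 (adjusted p = 0.986) in that order. Cfb, factor B of the alternative pathway, fell by 0.88 ± 0.17 in CTNNB1/NFE2L2 livers (adjusted p = 0.000738) and was at −0.33 in CTNNB1/NFE2L2/MET livers (adjusted p = 0.13).

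All 3 complement regulators fell in CTNNB1/NFE2L2 livers, and 1 of 3 in CTNNB1/NFE2L2/MET livers. The shares of all tested genes that fell were 24.2% and 23.4%, so the 1 of 3 (33.3%) was near that of all genes. Cfi, factor I, which cleaves C3b and C4b, measured 681, 599 and 689 CPM in CTNNB1/NFE2L2/MET livers, 377, 344 and 438 CPM in CTNNB1/NFE2L2 livers, 1174, 1503 and 1273 CPM in NFE2L2/MET livers, 979, 859 and 862 CPM in CTNNB1/MET livers and 644, 899 and 827 CPM in WT livers. The CTNNB1/NFE2L2 livers lay below and the NFE2L2/MET livers above every WT library, with changes of −1.03 ± 0.15 (adjusted p = 4.65e-05) and 0.74 ± 0.15 (adjusted p = 0.00241). C4bp, the cofactor of factor I, fell by 0.73 ± 0.17 in CTNNB1/NFE2L2 livers, and Vtn, vitronectin, which blocks terminal assembly, fell by 1.18 ± 0.22 in CTNNB1/NFE2L2/MET and 0.85 ± 0.22 in CTNNB1/NFE2L2 livers.

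**Figure D4:**
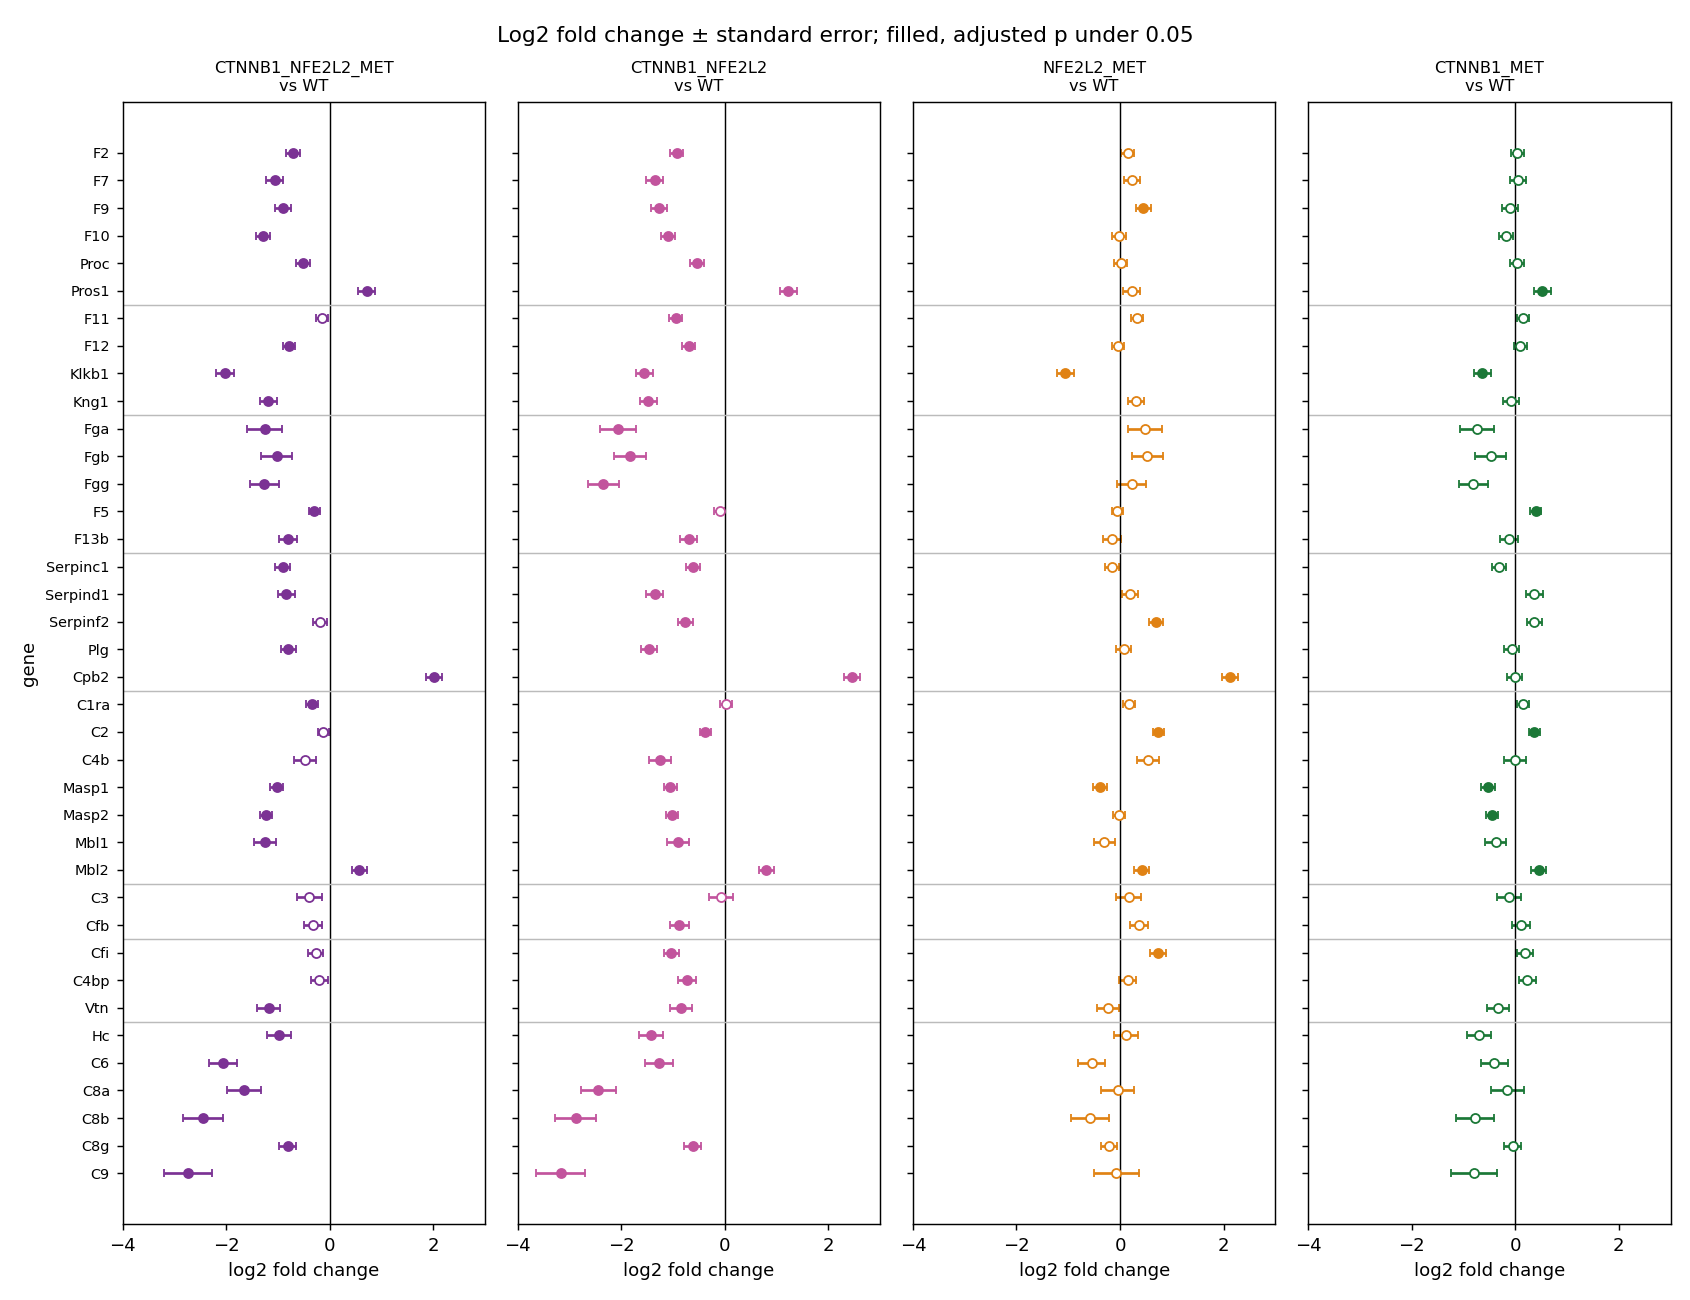
Log2 fold change against WT (horizontal axes) with its standard error for each member (vertical axis, by role) in the 4 models (panels). Filled points have an adjusted p under 0.05. In the CTNNB1/NFE2L2/MET and CTNNB1/NFE2L2 panels 30 and 35 points are filled, mostly left of 0, and in the NFE2L2/MET and CTNNB1/MET panels 8 and 7.

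The models without this pair of alleles held fewer calls against WT than those with it, among members and among all tested genes. Of the 38 members 6 rose and 2 fell in NFE2L2/MET livers, where 13.5% of all genes rose and 9.89% fell. In CTNNB1/MET livers 4 rose and 3 fell, where 11% of all genes rose and 6.22% fell. The members' counts were near these shares, so the low number of calls was not particular to them. In NFE2L2/MET livers Cpb2, Serpinf2, Cfi and C2 rose and Klkb1 fell whichever library was left out, with C2 at 0.74 ± 0.11 (adjusted p = 0.00017). The calls of F9 (0.45 ± 0.15), Mbl2 (0.42 ± 0.14) and Masp1 (−0.39 ± 0.13) there were not stable. F9 ended without NFE2L2/MET replicates 1, 2 or 3, WT replicate 1, CTNNB1/NFE2L2/MET replicate 2 or CTNNB1/MET replicate 2 (adjusted p up to 0.162), Masp1 without NFE2L2/MET replicates 1 or 3 or WT replicates 2 or 3 (up to 0.153), and Mbl2 without any 1 of 11 libraries (up to 0.144). In CTNNB1/MET livers Pros1 (0.53 ± 0.16), F5 (0.40 ± 0.10), C2 (0.37 ± 0.11) and Mbl2 (0.45 ± 0.14) rose and Klkb1, Masp1 (−0.52 ± 0.13) and Masp2 (−0.45 ± 0.12) fell. Without CTNNB1/MET replicate 1 each of these 7 calls ended. F5 and Masp2 also ended without WT replicate 1 (adjusted p up to 0.0702 and 0.0721), C2 without CTNNB1/MET replicate 2 or WT replicates 2 or 3 (up to 0.0914), Pros1 without any 1 of 8 libraries (up to 0.145) and Mbl2 without any 1 of 9 (up to 0.116).

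The models were then set against each other. CTNNB1/NFE2L2/MET and NFE2L2/MET livers differ by S45Y-CTNNB1: with it 32 members fell and 1 rose, where 14.3% of all genes fell and 16.4% rose, and the median was −0.91 against 0.01. CTNNB1/NFE2L2/MET and CTNNB1/MET livers differ by G31A-NFE2L2: with it 26 members fell and 1 rose, where 15.4% of all genes fell and 18.4% rose, and the median was −0.64 against −0.01. The next comparisons swap 1 allele for another, so a gained allele and the loss of hMET cannot be told apart in them. Setting CTNNB1/NFE2L2 livers against CTNNB1/MET livers (G31A-NFE2L2 in place of hMET), 30 members fell and 2 rose (17.2% and 17.9% of all genes, median −0.92 against −0.03). Against NFE2L2/MET livers (S45Y-CTNNB1 in place of hMET), 31 fell and 1 rose in CTNNB1/NFE2L2 livers (18.9% and 18.3% of all genes, median −1.08 against −0.01). C9 was 6.33-fold lower in CTNNB1/NFE2L2/MET than in NFE2L2/MET livers (adjusted p = 0.00101), 3.85-fold lower in CTNNB1/NFE2L2/MET than in CTNNB1/MET livers (adjusted p = 0.00552), 5.20-fold lower in CTNNB1/NFE2L2 than in CTNNB1/MET livers (adjusted p = 0.00154) and 8.56-fold lower in CTNNB1/NFE2L2 than in NFE2L2/MET livers (adjusted p = 0.000269). C8a and C8b were lower in all 4 of these comparisons too, by 1.5 to 2.39 and 1.67 to 2.31 on the log2 scale.

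Some of these calls rested on 1 library. In CTNNB1/NFE2L2/MET against CTNNB1/MET livers that of Cfi ended without CTNNB1/NFE2L2/MET replicate 2 or CTNNB1/MET replicate 1 (adjusted p up to 0.101). Against NFE2L2/MET livers, that of C8g in CTNNB1/NFE2L2/MET livers ended without CTNNB1/NFE2L2/MET replicate 1 (0.0537) and Pros1, the 1 gene that rose, without CTNNB1/NFE2L2/MET replicates 2 or 3 or NFE2L2/MET replicates 1 or 3 (up to 0.136). In CTNNB1/NFE2L2 against CTNNB1/MET livers C6 ended without CTNNB1/NFE2L2 replicate 2 or CTNNB1/MET replicate 2 (up to 0.0802), C8g without CTNNB1/NFE2L2 replicates 1 or 2 or CTNNB1/MET replicate 2 (up to 0.0582), F13b without CTNNB1/NFE2L2 replicates 1 or 2 or CTNNB1/MET replicate 1 (up to 0.0721) and Hc without CTNNB1/NFE2L2 replicates 2 or 3 or CTNNB1/MET replicates 1 or 2 (up to 0.1). In CTNNB1/NFE2L2 against NFE2L2/MET livers the calls of Serpinc1, Klkb1, F13b, Mbl1, Vtn and C6 ended without CTNNB1/NFE2L2 replicate 2, at adjusted p up to 0.192 over the libraries left out, and those of C6 without any 1 of 9 libraries.

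Comparisons with no library in common allow an overlap. Between CTNNB1/NFE2L2/MET against CTNNB1/MET and CTNNB1/NFE2L2 against NFE2L2/MET livers, 23 members fell in both, which is 88.5% of the 26 and 74.2% of the 31. Over all tested genes 6.23% fell in both, or 40.5% and 33.0% of the lower genes of each, and 7.7% rose in both, among them no member. In CTNNB1/NFE2L2/MET against NFE2L2/MET and CTNNB1/NFE2L2 against CTNNB1/MET livers, 28 members fell in both, 87.5% of the 32 and 93.3% of the 30, while 6.38% of all genes fell in both, or 44.7% and 37.1% of the lower genes of each. Pros1 was the 1 member that rose in both, as did 7.84% of all genes. Both pairs set the 2 groups with S45Y-CTNNB1 and G31A-NFE2L2 against the 2 groups that hold hMET with 1 of them.

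CTNNB1/NFE2L2/MET and CTNNB1/NFE2L2 livers differ by hMET. In CTNNB1/NFE2L2/MET livers 9 members were higher and 4 lower than in CTNNB1/NFE2L2 livers, where 13.1% of all genes were higher and 11.8% lower, and the median was 0.24 against 0.03. The median was 0.02 without CTNNB1/NFE2L2/MET replicate 3 or without all 3 marked libraries (WT, CTNNB1/NFE2L2/MET and CTNNB1/MET replicate 3, whose mark the labels do not explain), and 0.05 without CTNNB1/NFE2L2 replicate 2. With the scaling by total counts the split was 11 higher and 2 lower. The calls that held whichever library was left out were F11, 1.74-fold higher in CTNNB1/NFE2L2/MET livers (0.80 ± 0.12, adjusted p = 0.000355), Cfi, 1.70-fold higher (0.76 ± 0.15, adjusted p = 0.00185), Plg, 1.59-fold higher (0.67 ± 0.15, adjusted p = 0.00408) and Serpinf2, 1.5-fold higher (0.58 ± 0.14, adjusted p = 0.00685). For all 4 genes every CTNNB1/NFE2L2/MET library lay above every CTNNB1/NFE2L2 library. The 4 were picked by calls on these same libraries, so this adds no separate support. The share of all tested genes without overlap was not counted. The other 5 that were higher were Fgg, C4b, Serpind1, C4bp and Cfb, at 0.52 to 1.08, and the 4 lower were Pros1, Cpb2, C1ra and C6, at −0.35 to −0.79. Each of these 9 calls ended without CTNNB1/NFE2L2/MET replicate 1 or CTNNB1/NFE2L2/MET replicate 2, and all but C6 also without CTNNB1/NFE2L2 replicate 2, at adjusted p up to 0.171 over the libraries left out. Acute phase transcripts and albumin differed beside these values: Hp measured 4628, 3426 and 3588 CPM in CTNNB1/NFE2L2/MET livers and 1152, 1148 and 1379 CPM in CTNNB1/NFE2L2 livers, and Alb, albumin, 54976, 48189 and 51333 CPM in CTNNB1/NFE2L2/MET livers and 16452, 14265 and 19827 CPM in CTNNB1/NFE2L2 livers. Their part in the result was not tested.

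NFE2L2/MET and CTNNB1/MET livers differ in which of G31A-NFE2L2 and S45Y-CTNNB1 accompanies hMET. In NFE2L2/MET livers 9 members were higher (F9, Fga, Fgb, Fgg, Cpb2, C2, Masp2, Cfi and Hc) and 1, F5, lower, where 7.36% of all genes were higher and 6.96% lower, and the median was 0.16 against 0.00, or 0.06 without NFE2L2/MET replicate 2. With the scaling by total counts the split was 6 higher and 2 lower. Cpb2 and F5 were called whichever library was left out. The other 8 calls ended without NFE2L2/MET replicate 2, the library high in acute phase genes, and again without CTNNB1/MET replicate 2 (adjusted p up to 0.213 over the libraries left out).

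Lists of other genes of these systems were set beside the members and beside all tested genes, of which 26.5% rose and 23.4% fell in CTNNB1/NFE2L2/MET livers, 24.5% and 24.2% in CTNNB1/NFE2L2, 13.5% and 9.89% in NFE2L2/MET and 11% and 6.22% in CTNNB1/MET livers. Of 20 other coagulation genes, 6 rose and 7 fell in CTNNB1/NFE2L2/MET livers, with 4 falling without WT replicate 2, and 5 rose and 7 fell in CTNNB1/NFE2L2 livers, with 3 rising without CTNNB1/NFE2L2 replicate 1. The shares that rose, 30% and 25% of the list, were near those of all genes, and 35% fell in each group. In NFE2L2/MET livers 7 rose and 0 fell by edgeR, where 1 fell at an unadjusted p under 0.05 and 1 by DESeq2. In CTNNB1/MET livers 5 rose and 1 fell, with 1 to 3 rising when CTNNB1/MET replicates 1 or 2 or any 1 WT library was left out. Procr, the endothelial protein C receptor, measured 29.7, 20.7 and 15.3 CPM in CTNNB1/NFE2L2/MET livers, 16.5, 13.4 and 13.5 CPM in CTNNB1/NFE2L2 livers and 0.863, 0.890 and 0.962 CPM in WT livers, with log2 fold changes of 4.58 ± 0.29 (adjusted p = 1.21e-08) and 3.99 ± 0.29. Plat, tissue plasminogen activator, measured 81.2, 39.0 and 43.5 CPM in CTNNB1/NFE2L2/MET livers, 32.3, 18.2 and 14.3 CPM in CTNNB1/NFE2L2 livers and 1.01, 0.949 and 1.15 CPM in WT livers, with log2 fold changes of 5.71 ± 0.51 (adjusted p = 1.62e-06) and 4.38 ± 0.51. Neither group overlapped WT in either gene. The hepatocyte-made genes Hrg, histidine-rich glycoprotein, and Proz, protein Z, were among those that fell, Hrg by 1.52 ± 0.17 in CTNNB1/NFE2L2/MET livers and Proz by 1.15 ± 0.14 in CTNNB1/NFE2L2 livers.

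The enzymes that prepare vitamin K-dependent factors are Vkorc1, which recycles vitamin K, and Ggcx, the γ-carboxylase. Of 7 genes of the vitamin K cycle and factor secretion, 2 rose and 3 fell in CTNNB1/NFE2L2/MET livers, 1 rose and 3 fell in CTNNB1/NFE2L2 livers, 2 rose and 2 fell in NFE2L2/MET livers and 1 rose and 1 fell in CTNNB1/MET livers. In CTNNB1/NFE2L2/MET livers these were 28.6% and 42.9% of the list, against 26.5% and 23.4% of all genes, and in CTNNB1/NFE2L2 livers 14.3% and 42.9%, against 24.5% and 24.2%. The 2 rising in CTNNB1/NFE2L2/MET livers became 1 without WT replicate 1, CTNNB1/NFE2L2/MET replicate 1 or CTNNB1/NFE2L2/MET replicate 2, and both directions in NFE2L2/MET livers became 1 without WT replicate 1. Ggcx measured 50.8, 52.4 and 46.2 CPM in CTNNB1/NFE2L2/MET livers, 41.9, 40.0 and 43.6 CPM in CTNNB1/NFE2L2 livers and 73.6, 85.6 and 70.9 CPM in WT livers, and fell by 0.62 ± 0.10 (adjusted p = 7.03e-05) and 0.88 ± 0.10. Vkorc1 measured 107, 127 and 120.1 CPM in CTNNB1/NFE2L2/MET livers and 209, 196 and 202 CPM in WT livers, and fell by 0.78 ± 0.09 (adjusted p = 7.29e-06). Neither gene overlapped WT in these groups. Nqo1, a quinone reductase able to reduce vitamin K, was the gene of this list with the largest rise, by 5.64 ± 0.20 in CTNNB1/NFE2L2/MET and 5.53 ± 0.19 in CTNNB1/NFE2L2 livers.

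Among 25 other complement genes tested, 8 rose and 11 fell in CTNNB1/NFE2L2/MET livers and again 8 rose and 11 fell in CTNNB1/NFE2L2 livers, 7 rose and 1 fell in NFE2L2/MET livers, and 6 rose and 3 fell in CTNNB1/MET livers. In both CTNNB1/NFE2L2/MET and CTNNB1/NFE2L2 livers 32% of the list rose and 44% fell, against 26.5% and 24.5% of all genes that rose and 23.4% and 24.2% that fell. The counts in CTNNB1/MET livers became 3 and 0 without CTNNB1/MET replicate 1, 2 rose without CTNNB1/MET replicate 2 or WT replicate 1, and 1 fell without CTNNB1/MET replicate 3 or WT replicate 3. C1qb, a chain of the C1q recognition molecule made by macrophages, measured 122.2, 73.7 and 92.3 CPM in CTNNB1/NFE2L2/MET livers, 85.9, 71.9 and 73.9 CPM in CTNNB1/NFE2L2 livers, 58.6, 66.6 and 59.6 CPM in NFE2L2/MET livers, 47.4, 44.7 and 41.8 CPM in CTNNB1/MET livers and 23.2, 28.2 and 27.5 CPM in WT livers. Every model library lay above WT. The summed level of 6 macrophage and Kupffer cell markers was 227 to 327 CPM in CTNNB1/NFE2L2/MET, 245 to 359 CPM in CTNNB1/NFE2L2, 212 to 277 CPM in NFE2L2/MET, 157 to 199 CPM in CTNNB1/MET and 135 to 151 CPM in WT livers, with no marker at 0, and its part in the C1qb result was not tested.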

How the data were processed

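Polyadenylated RNA from fresh frozen liver, isolated with an RNeasy Mini kit per the labels' protocols, was sequenced in 15 libraries. The authors used Trimmomatic, STAR and the mm10 build, per the submitters' processing notes. Tool versions and the annotation release: not given in the sources used here. The deposited values are raw gene counts in STAR's layout, whose lines for unmapped and multimapping reads were left out of library sizes. The unstranded column was used because each strand column held near equal shares. Reads in overlapping genes (Masp2 with Tardbp, F5 with Gm16548) or matching both copies of a pair (C4b and C4a, Kng1 and Kng2, C1ra and C1rb) are left out of gene counts, which makes those levels uncertain.

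All 15 libraries were fitted together in edgeR 4.0.16 (R 4.3.3, limma 3.58.1) with TMM scaling, its default count filter by group and robust quasi-likelihood F tests for 10 comparisons, with Benjamini-Hochberg adjustment over 14098 genes at 0.05. Standard errors are the log2 fold change over the root of F. Alternatives included DESeq2 1.42.0. Replicates were numbered in accession order; 3 libraries (WT, CTNNB1/NFE2L2/MET and CTNNB1/MET replicate 3) carry a mark whose meaning the labels do not give. No member had fewer than 645 reads in any library, so the spread between libraries of a group limits precision more than depth. The members and the gene lists were chosen with earlier results of these data known. Every member may be named, and of each other list the 4 genes with the smallest p in a comparison and regulators; Alb, Hp, Lcn2, Orm2, Saa1 and Saa2 were named after their values were seen. Procedures were tested on simulated data. Gene positions are from GENCODE M21, promoters from RefSeq (GRCm38.p6).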

Additional observations from a re-analysis of the deposited data

How the results depend on the processing

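No paired analysis was possible because no label ties a library of one group to a library of another. Of the 380 log2 fold changes of members, none changed sign with a call under any alternative. Apart from the fits that leave out 1 library, between 331 (total-count scaling) and 375 (RLE size factors, or no low-count filter) kept their side of the threshold. Scaling by total counts moved the median of all genes by 0.24 in CTNNB1/NFE2L2/MET against WT, 0.18 in CTNNB1/NFE2L2 against WT, −0.13 in NFE2L2/MET against WT, 0.36 in CTNNB1/NFE2L2/MET against NFE2L2/MET, 0.26 in CTNNB1/NFE2L2/MET against CTNNB1/MET, 0.21 in CTNNB1/NFE2L2 against CTNNB1/MET, 0.31 in CTNNB1/NFE2L2 against NFE2L2/MET and −0.10 in NFE2L2/MET against CTNNB1/MET livers. The members' median was then −0.53 in CTNNB1/NFE2L2/MET against NFE2L2/MET, −0.38 in CTNNB1/NFE2L2/MET against CTNNB1/MET, 0.01 in NFE2L2/MET against WT and 0.05 in NFE2L2/MET against CTNNB1/MET livers. Members lower then numbered 24 in CTNNB1/NFE2L2/MET and 31 in CTNNB1/NFE2L2 livers against WT, 25 in CTNNB1/NFE2L2/MET and 24 in CTNNB1/NFE2L2 livers against NFE2L2/MET, and 19 in CTNNB1/NFE2L2/MET and 25 in CTNNB1/NFE2L2 livers against CTNNB1/MET.

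The counts that moved by over 1.5 times were small ones. Members higher in CTNNB1/NFE2L2 than in NFE2L2/MET livers (1) became 2 with RLE size factors, the single-strand column or the 6 libraries of the comparison, and 3 with total counts or DESeq2. Members lower in CTNNB1/MET than in WT livers (3) became 5 with total counts and 6 with DESeq2, and those higher (4) became 1 without the marked libraries or with 6 libraries. Members lower in CTNNB1/NFE2L2/MET than in CTNNB1/NFE2L2 livers (4) became 2 with total counts or no filter and 7 with DESeq2. Members higher in CTNNB1/NFE2L2/MET livers (1) became 2 against NFE2L2/MET and 3 against CTNNB1/MET with total counts, and 0 against NFE2L2/MET without the marked libraries. Members lower in NFE2L2/MET than in WT livers (2) became 1 with a term for the marked libraries or without them. Members higher in NFE2L2/MET than in CTNNB1/MET livers (9) became 5 with that term and 2 without those libraries, and the 1 lower became 2 with total counts or 6 libraries. Leaving out both libraries high in acute phase genes, chosen after seeing the data, gave 1 lower in NFE2L2/MET than in WT, 2 higher in CTNNB1/NFE2L2 than in NFE2L2/MET, and 4 higher and 2 lower in NFE2L2/MET than in CTNNB1/MET livers, while 27 and 32 members stayed the counts lower in CTNNB1/NFE2L2/MET and CTNNB1/NFE2L2 livers against WT.

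Leaving out 1 library gave 3 to 3 higher and 25 to 29 lower in CTNNB1/NFE2L2/MET, and 3 to 3 higher and 31 to 32 lower in CTNNB1/NFE2L2, against WT. It gave 4 to 10 higher and 1 to 2 lower in NFE2L2/MET, and 0 to 4 higher and 0 to 5 lower in CTNNB1/MET, against WT. For CTNNB1/NFE2L2/MET the ranges were 4 to 11 and 0 to 4 against CTNNB1/NFE2L2, 0 to 1 and 31 to 33 against NFE2L2/MET, and 1 to 1 and 25 to 28 against CTNNB1/MET livers. For CTNNB1/NFE2L2 they were 2 to 3 and 26 to 31 against CTNNB1/MET, and 1 to 3 and 25 to 32 against NFE2L2/MET livers, and for NFE2L2/MET against CTNNB1/MET livers 1 to 10 and 1 to 2. The low ends of CTNNB1/MET against WT came without CTNNB1/MET replicate 1, those of NFE2L2/MET against CTNNB1/MET without CTNNB1/MET replicate 2 or NFE2L2/MET replicate 2, and the high ends of NFE2L2/MET against WT and CTNNB1/MET without WT replicate 2. The 4 higher in CTNNB1/NFE2L2/MET than in CTNNB1/NFE2L2 came without CTNNB1/NFE2L2 replicate 2 and the 0 lower without CTNNB1/NFE2L2/MET replicates 1 or 2 or CTNNB1/NFE2L2 replicate 3.

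Acute phase genes outside the members reversed. Without WT replicate 2, Orm2 was at 2.94 in CTNNB1/NFE2L2 and 3.55 in NFE2L2/MET, Saa2 at 6.10 in NFE2L2/MET and Hp at 1.00 in CTNNB1/MET livers against WT on the log2 scale; their lowest values with another library left out were −1.44, −1.55, −3.04 and −0.99. Without both high libraries Orm2 was at 2.93 and 2.26, Saa2 at 3.57, Hp at 1.00 and Lcn2 at 2.14 in CTNNB1/NFE2L2 livers. The cause of the changes in this section was not tested. Every member had at least 645 reads in every library, so the spread between 3 libraries a group, rather than depth, limits these comparisons.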

Other observations

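Transcription factors that drive hepatocyte genes were lower as well in the 2 groups with S45Y-CTNNB1 and G31A-NFE2L2. Of 13 liver transcription factors, 8 fell in CTNNB1/NFE2L2/MET livers and 7 in CTNNB1/NFE2L2 livers, against 23.4% and 24.2% of all tested genes, with medians of −0.48 and −0.88 on the log2 scale; without CTNNB1/NFE2L2/MET replicate 3 the count in CTNNB1/NFE2L2/MET livers was 5. Cebpa, which encodes C/EBPα, measured 225, 323 and 354 CPM in CTNNB1/NFE2L2/MET livers, 251, 327 and 349.8 CPM in CTNNB1/NFE2L2 livers and 760.0, 643 and 518 CPM in WT livers. Both groups lay below WT in every library, and Cebpa fell by 1.09 ± 0.19 in CTNNB1/NFE2L2/MET livers (edgeR adjusted p = 0.000239). Hnf4a, a nuclear receptor that defines hepatocytes, measured 592, 532 and 557 CPM in CTNNB1/NFE2L2/MET livers, 541, 615 and 717 CPM in CTNNB1/NFE2L2 livers and 959, 743 and 1090.3 CPM in WT livers. It fell by 0.73 ± 0.15 in CTNNB1/NFE2L2/MET livers (adjusted p = 0.000689). Nr1h4, the bile acid receptor FXR, fell by 0.92 ± 0.20 in CTNNB1/NFE2L2/MET livers.

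Among 11 other secreted hepatocyte genes, 8 fell in CTNNB1/NFE2L2/MET livers and 9 in CTNNB1/NFE2L2 livers, with medians of −0.581 and −0.997. These were 72.7% and 81.8% of the list, against 23.4% and 24.2% of all tested genes. Serpina1c is an α1-antitrypsin gene, and reads that also match its near-identical copies would be left out as multimapping. It measured 674, 1002 and 1119 CPM in CTNNB1/NFE2L2/MET livers, 754, 234 and 960.1 CPM in CTNNB1/NFE2L2 livers and 5468, 4665 and 5340.5 CPM in WT livers. CTNNB1/NFE2L2 replicate 2 was the lowest library for it, as for C9, C8a and C8b. Alb stood apart from the list: its log2 fold change was 0.02 ± 0.20 in CTNNB1/NFE2L2/MET livers (adjusted p = 0.95), −1.59 ± 0.21 in CTNNB1/NFE2L2 livers (adjusted p = 1.6e-05) and 1.28 ± 0.20 in NFE2L2/MET livers (adjusted p = 0.000408).

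Of 13 genes of the interleukin 6 and acute phase axis, 1 rose and 3 fell in CTNNB1/NFE2L2/MET livers and 8 fell in CTNNB1/NFE2L2 livers. The 3 were 23.1% of the list, against 23.4% of all tested genes, and the 8 were 61.5%, against 24.2%. Single libraries moved these counts: 7 fell in CTNNB1/NFE2L2/MET livers without WT replicate 1, 6 without WT replicate 3 and 5 without NFE2L2/MET replicate 2, and the 1 rising (Socs3) was not called without most single libraries. Without WT replicate 2, 2 rose in CTNNB1/NFE2L2/MET livers, and 2 rose and 4 fell in CTNNB1/NFE2L2 livers. In NFE2L2/MET livers edgeR called 0 genes, 0 had an unadjusted p under 0.05 and DESeq2 called 0, and without WT replicate 2 the count that rose was 8. Il6st, the shared receptor subunit gp130, measured 85.3, 73.7 and 89.0 CPM in CTNNB1/NFE2L2/MET livers, 73.4, 66.8 and 72.0 CPM in CTNNB1/NFE2L2 livers and 104, 179 and 134 CPM in WT livers. Both groups lay below WT in every library, and it fell by 0.75 ± 0.16 and 0.98 ± 0.16.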
